A study of Mus musculus with 4 samples.

Results

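The cytosolic ribosomal protein genes were followed in colonic monocytes and macrophages of mice fed a high-fat diet (HFD) or chow. Members were the protein-coding rows whose mouse symbol begins with Rpl or Rps followed by a number, together with Rpsa, Rplp0, Rplp1 and Rplp2. Of 180 rows with such names, 89 annotated pseudogenes, 8 Rps6k kinase genes and the pseudogene-named rows Rpl36a-ps1 and Rpl9-ps1 were left out, which gave 81 members among 11820 genes in the matrix. By name, 48 belonged to the large subunit and 33 to the small subunit. The rule also took in Rps19bp1 and Rpl7l1, which are not components of the ribosome, and the paralogs Rps27l, Rpl22l1, Rpl36al, Rpl39l and Rpl3l. The rule uses names and gene type only.

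The ribosome joins a small subunit, which reads the message, to a large subunit, which links the amino acids, and most ribosomal proteins are needed in equal number per particle. On the large subunit, Rplp0 anchors the acidic proteins Rplp1 and Rplp2 in a flexible stalk that recruits the elongation factors. Messages for ribosomal proteins typically begin with a C followed by a run of pyrimidines (the terminal oligopyrimidine tract), through which mTOR signalling controls their translation. In the colon, Ly6C-high blood monocytes enter the lamina propria, gain MHC class II, lose Ly6C and become resident macrophages that make the complement component C1q.

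All 4 animals were male C57/Bl6N mice of 6 to 7 weeks of age. For 1 week, 2 received normal chow (replicates 9 and 11) and 2 received a coconut-based diet (D12331, given as 60%; HFD replicates 1 and 3). Lamina propria cells of each mouse were sorted as live CD45+Lin-CD11b+CD24- cells with Ly6C or CD64 and loaded into 1 well for 3' single-cell sequencing, so that mouse, well and library cannot be told apart. The libraries held 904 cells and 3832283 UMIs (chow 9), 2002 cells and 7947893 UMIs (chow 11), 966 cells and 3824228 UMIs (HFD 1) and 1548 cells and 5584175 UMIs (HFD 3), and 23 cell barcodes occurred in 2 libraries. A UMI is a tag that marks 1 captured molecule.

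Maturation stages were set without any ribosomal protein gene. A cell was Ly6c2-positive from 1 UMI, MHC II-high above 2.05% of its UMIs (H2-Aa, H2-Ab1, H2-Eb1 and Cd74) and C1q-high above 0.295% of its UMIs (C1qa, C1qb and C1qc). Monocyte-stage cells were Ly6c2-positive and low for both, transitional cells were Ly6c2-positive, MHC II-high and C1q-low, intermediate cells were Ly6c2-negative, MHC II-high and C1q-low, and C1q-high cells were Ly6c2-negative at any MHC II level. The stages are ranges of a continuum, and 330 cells lay within 1.5-fold of the MHC II threshold and 222 within 1.5-fold of the C1q threshold. In chow 9, chow 11, HFD 1 and HFD 3, the monocyte stage held 66, 71, 281 and 327 cells, the transitional stage 3, 19, 93 and 336, the intermediate stage 26, 30, 100 and 176, and the C1q-high stage 743, 1768, 347 and 382. The transitional stage was not tested for diet or stage because the chow mice had too few cells. A further 652 cells passed no gate combination, of which 465 were both Ly6c2-positive and C1q-high.

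Markers that set no gate were checked against the stage names. The summed level of 9 monocyte markers ran from 14443 to 27737 CPM (counts of a gene scaled to a common total per mouse and stage) in the monocyte stage and from 338 to 2723 CPM in the C1q-high stage. Among them, Plac8 stood at 5978 to 13417 CPM and at 45.8 to 1302 CPM. Of 7 tested monocyte markers, edgeR called 6 lower in C1q-high than in monocyte-stage cells. The other, Ly6a, was called higher (log2 fold change 0.82, edgeR adjusted p = 0.0038). The sum of 10 resident macrophage markers ran from 3792 to 10669 CPM in the monocyte stage and from 21644 to 68682 CPM in the C1q-high stage. Within the C1q-high stage the diets also differed in these sums: resident markers stood at 68682 and 66754 CPM in chow against 28209 and 21644 CPM in HFD, and monocyte markers at 338 and 515 CPM in chow against 2723 and 2660 CPM in HFD. Single markers differed by diet in the earlier stages too. In HFD, edgeR called 4 of 6 tested resident markers lower in the monocyte stage and 4 of 6 in the intermediate stage. Monocyte markers called higher in HFD numbered 1 of 9 and 3 of 7 in these stages. Markers of B and plasma cells reached 41054, 26258, 9037 and 7162 CPM in the monocyte stage of chow 9, chow 11, HFD 1 and HFD 3, and 706 CPM or less in the intermediate stage. In the C1q-high stage they stood at 1542 and 1001 CPM in chow against 375 and 304 CPM in HFD, with Igha, Jchain and Ighm called lower in HFD by edgeR. Over all cells, 27 cells held more than 1% of their UMIs in these or in epithelial markers, 6 of them in the monocyte stage, and the shares by stage and diet and the tests of single members were also computed without them. Sums of T and NK, neutrophil, dendritic and stromal cell markers were at most 488 CPM in any tested stage of any mouse. Against monocyte-stage cells, edgeR called the dendritic marker Ccr7 higher in intermediate (log2 fold change 7.05) and C1q-high cells (5.21). In C1q-high cells the endothelial marker Pecam1 was called higher (2.34) and the neutrophil marker Csf3r lower (-1.53). Their part in the stage differences was not tested.

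The starts of members that return in the results are shown for the tract at the 5' end. Each line below gives 15 bases before and 15 bases from the annotated start in RefSeq (GRCm38.p6, gene strand, 5' to 3'), and capitals mark 1 run of a C followed by at least 4 bases that are each C or T, which begins within 10 bases of the start and is marked from the start itself where the bases from there on form such a run. Rps27l and Rps21 have 2 annotated starts, of which 1 is shown. Rplp2, Rpl18, Rps9, Rps27, Rps27l and Rps21 carry a run that begins within these 10 bases, and Rplp0, Rpsa, Rpl4, Rpl36al, Rpl23 and Rps3 do not, although Rpl4 has one that begins further upstream.
Rplp2 (chr7:141447636-141447665, plus strand): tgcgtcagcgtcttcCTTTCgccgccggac
Rpl18 (chr7:45718056-45718085, plus strand): tgcgtctcgcaggccgCTCTTTCCCCgccc
Rps9 (chr7:3704026-3704055, plus strand): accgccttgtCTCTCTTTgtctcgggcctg
Rps27 (chr3:90213634-90213663, minus strand): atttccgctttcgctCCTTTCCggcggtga
Rps27l (chr9:66946071-66946100, plus strand): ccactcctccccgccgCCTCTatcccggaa
Rps21 (chr2:180257364-180257393, plus strand): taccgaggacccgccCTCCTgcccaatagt
Rplp0 (chr5:115559452-115559481, plus strand): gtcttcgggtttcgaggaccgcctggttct
Rpsa (chr9:120127751-120127780, plus strand): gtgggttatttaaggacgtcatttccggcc
Rpl4 (chr9:64173372-64173401, plus strand): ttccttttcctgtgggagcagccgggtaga
Rpl36al (chr12:69184053-69184082, minus strand): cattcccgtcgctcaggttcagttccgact
Rpl23 (chr11:97782425-97782454, minus strand): acgaggtccggtcacgtggctgagtgggcg
Rps3 (chr7:99483695-99483724, minus strand): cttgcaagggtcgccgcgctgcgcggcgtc

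RefSeq start windows were found for 62 of 81 members, in 74 windows. A C followed by at least 4 pyrimidines began exactly at the annotated start in 17.6% of members' windows and in 2.51% of the 32851 windows of all genes. On the opposite strand the shares were 2.70% and 3.38%. A longer run, with at least 6 pyrimidines after the C and beginning within 10 bases of the start, was present in 40.5% of members' windows against 12.2% of all windows, and in 6.76% against 14.3% on the opposite strand. These matches describe letters at annotated starts, which may differ from the starts used in these cells.

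The members together took 1178896 of 21188579 UMIs, or 5.56%. Counts were very uneven among members: the 10 most counted members held 49.6% of the family's UMIs, and 21 members had fewer than 1000 UMIs each. Rps14, a small-subunit protein, had 89311 UMIs, Rps9 had 82112, and the stalk base Rplp0 had 57321. At the other end, Rps6, the S6 kinase substrate of the small subunit, had 19 UMIs in 5420 cells, Rpl23a 19, Rpl36a 52, Rps27a 60 and Rpl5 105, although their proteins are core components. The muscle-type paralog Rpl3l had 17 UMIs and the testis-type paralog Rpl39l had 10.

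These counts cannot be read as an order of expression. Ribosomal protein genes have many processed pseudogenes with nearly the same sequence, and how reads that fit several genes were handled is not given in the sources used here. Uniqueness was searched in the last 300 bases of 1 annotated protein-coding transcript per member (GENCODE M21). An alternative transcript was taken before a principal one where both were annotated. The share of 31-base words found in no other annotated gene was 0% for Rpl10, Rpl21, Rpl36a, Rpl5, Rps12 and Rps27. It was 100% for 12 members, among them Rplp0, Rps3 and Rps20. The transcript searched was 3706 bases long for Rps20 and 2045 for Rpl5, and its end may differ from the 3' ends captured in these cells. Not all shared words lay in pseudogenes. The Rpl5 transcript searched shared its words with 1 gene that was no pseudogene. Of the 1151 genes sharing words with the Rps16 transcript searched (1109 bases), 18 were pseudogenes. For that of Rpl23 (1059 bases), 21 of 1007 were. The 14 members with a share under 10% had a median of 500.5 UMIs (range 19 to 27634), and the 39 members at 10 to 50% had a median of 8574 (range 19 to 55066). The 16 members at 50% to under 100% had a median of 17672 (range 10 to 89311), and the 12 wholly unique members had a median of 3181 (range 17 to 57321). Across the 81 members the Spearman correlation of the share with the UMIs was 0.24, given as a description since members share libraries and many share sequence. Members are therefore compared below only with themselves across stages and diets.

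**Figure D1:**
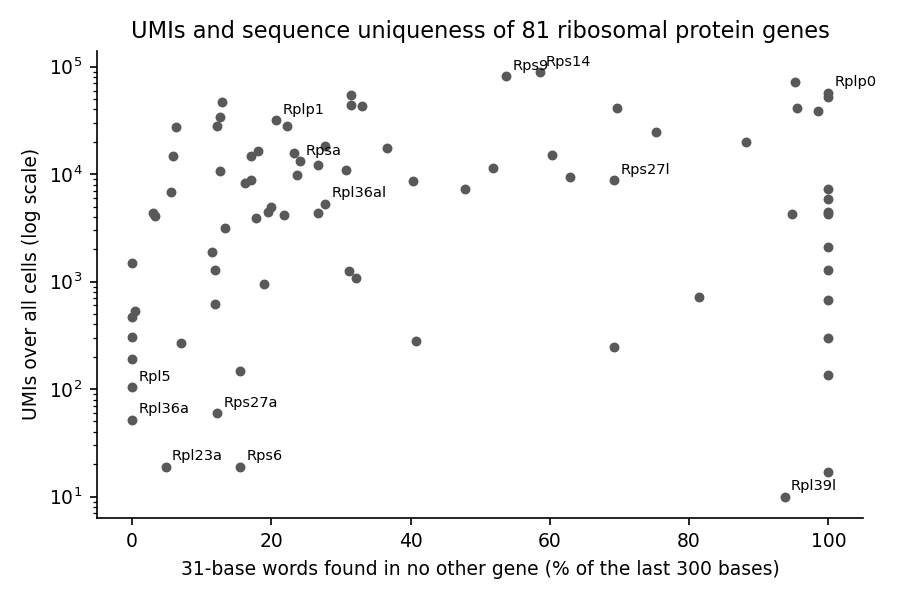
UMIs of each of the 81 members over all cells (log axis) against the share of 31-base words in the last 300 bases of the transcript searched that no other gene contains. Rps6 and Rpl23a, with 19 UMIs each, sit among members of low uniqueness, while Rps14 and Rps9 sit at the top, and the spread at any one uniqueness is wide.

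The first comparison asked how the family's share of UMIs varied along maturation. In the monocyte stage the members took 7.36% of UMIs in chow 9, 7.35% in chow 11, 7.74% in HFD 1 and 6.75% in HFD 3. In the intermediate stage the shares were 7.21%, 6.27%, 7.52% and 6.75%. In the C1q-high stage they were 4.87%, 4.54%, 6.08% and 6.01%. Every mouse was thus lowest in the C1q-high stage among these 3 stages, and the monocyte and C1q-high values did not overlap across the 4 mice. Wilson 95% intervals, which cover counting error only, spanned 7.25% to 7.47% for chow 9 monocyte-stage cells and 4.53% to 4.56% for chow 11 C1q-high cells.

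The mean difference between C1q-high and monocyte stages was -1.92 percentage points ± 0.925 (SD, n = 4 mice), and it was negative in 4 of 4 mice. The exact two-sided sign-flip test gave p = 0.13, the smallest value that 4 mice allow. The intermediate stage differed from the monocyte stage by -0.361 points ± 0.488 (SD, n = 4, exact sign-flip p = 0.13), and HFD 3 was equal in both stages to the digits shown. With the gate genes' own UMIs taken out of the total, the C1q-high difference was -1.31 points, and the intermediate difference turned to 0.147 points. MHC II genes alone took 3372 to 6833 CPM in the monocyte stage and 89665 to 96027 CPM in the C1q-high stage. Mitochondrially encoded genes took 0.888%, 0.872%, 0.992% and 0.811% of UMIs in monocyte-stage cells of chow 9, chow 11, HFD 1 and HFD 3. They took 1.23%, 1.12%, 1.15% and 0.907% in C1q-high cells, higher in every mouse. With these genes taken out of the total, the C1q-high difference in the family's share was -1.93 points.

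Both subunits were lower in the C1q-high stage. Large-subunit members took 3.03% to 3.57% of UMIs in the monocyte stage and 2.00% to 2.84% in the C1q-high stage, and small-subunit members took 3.72% to 4.17% and 2.55% to 3.25%. The median cell also held less in the C1q-high stage: its share was 7.39%, 7.46%, 7.62% and 6.57% in monocyte-stage cells of chow 9, chow 11, HFD 1 and HFD 3, and 4.61%, 4.30%, 5.78% and 5.64% in C1q-high cells. Cells that were both Ly6c2-positive and C1q-high, which belonged to no stage, held 4.61%, 4.50%, 6.30% and 5.85%, near the C1q-high cells of the same mouse. B and plasma cell markers took 46955 and 48963 CPM of these cells in chow and 266 and 257 CPM in HFD, and their part in the share was not tested. Cells negative for all 3 gates held 8.07%, 6.72%, 7.84% and 6.41%, with a median depth of 1474 to 2196 UMIs per cell, against 2104 to 4210 UMIs in the 3 tested stages.

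**Figure D2:**
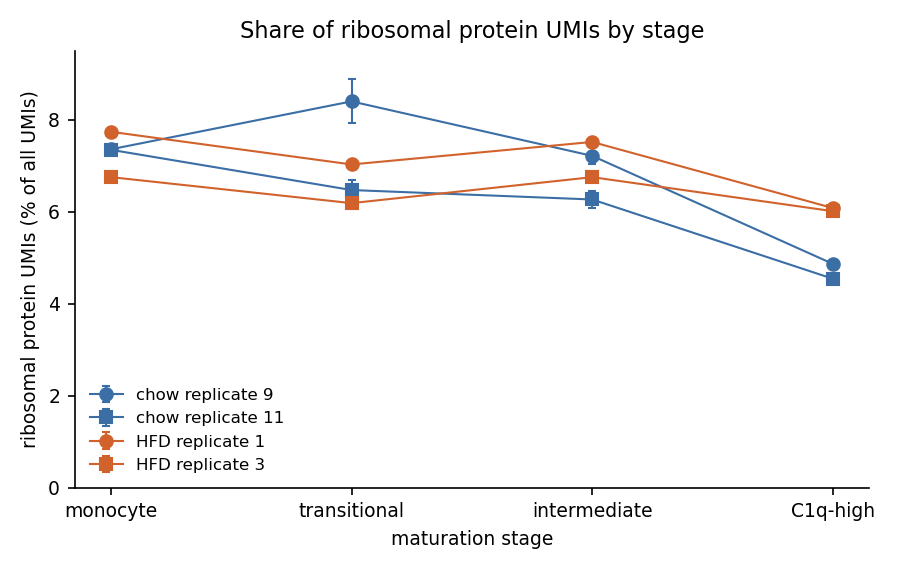
Share of all UMIs taken by the 81 ribosomal protein genes in each maturation stage, 1 point per mouse (blue chow, orange HFD), bars Wilson 95% intervals. All 4 mice are lowest in the C1q-high stage among the tested stages, where chow lies at 4.54% and 4.87% and HFD at 6.01% and 6.08%, and the transitional point of chow 9 (8.40%) rests on 3 cells.

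Within the family, the fall was broad but uneven. After TMM scaling of UMI sums per mouse and stage, 67 members passed the filter on low counts, and edgeR's quasi-likelihood test with a term for each mouse called 17 lower and 1 higher in C1q-high than in monocyte-stage cells at a 1% false discovery rate (Benjamini-Hochberg over all 4950 genes tested). Over all genes, 12.9% were called lower and 12.8% higher. Of the members tested, 53 had a log2 fold change below 0, against 48.3% of all genes, and the median member stood at -0.20 against 0.03 over all genes. The 14 untested members had 10 to 300 UMIs each and included Rps6, Rpl23a, Rpl5, Rps27a and Rpl36a.

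Rpsa, the laminin receptor protein of the small subunit, fell the most on the log2 scale. Its level was 933, 1129, 1150 and 827 CPM in monocyte-stage cells of chow 9, chow 11, HFD 1 and HFD 3, and 421, 505, 628 and 624 CPM in C1q-high cells. The stages did not overlap, and the log2 fold change was -0.76 ± 0.10 (SE, n = 4 mice, edgeR adjusted p = 4.1e-07).

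Rplp0, the stalk base, stood at 4481, 4466, 4818 and 3801 CPM in monocyte-stage cells, at 3267, 2921, 3743 and 3298 CPM in intermediate cells and at 2089, 1945, 2866 and 2934 CPM in C1q-high cells. It was the one member already called in the intermediate stage, with a log2 fold change of -0.48 ± 0.10 (SE, edgeR adjusted p = 0.0016), and it reached -0.72 ± 0.10 (edgeR adjusted p = 6.4e-07) in C1q-high cells. Over all genes, 4.20% were called lower in the intermediate stage. The intermediate call was lost when any 1 of chow 11, HFD 1 or HFD 3 was left out, with thresholds 1.5 times higher, and with gates on cells thinned to 1500 UMIs (-0.34, edgeR adjusted p = 0.047).

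Rplp1, which binds Rplp0 on the same stalk, went the other way. It stood at 1038, 1420, 1481 and 1222 CPM in monocyte-stage cells and at 1367, 1561, 1611 and 1794 CPM in C1q-high cells, higher in 4 of 4 mice although the ranges overlapped. Its log2 fold change was 0.44 ± 0.10 (SE, edgeR adjusted p = 8.8e-04) and did not pass without TMM scaling (0.29, edgeR adjusted p = 0.022), without chow 9 (0.37, edgeR adjusted p = 0.014) or without HFD 3 (0.34, edgeR adjusted p = 0.065). The third stalk protein, Rplp2, stood at 1750, 1182, 1954 and 1492 CPM and at 1419, 857, 1698 and 1538 CPM, with a log2 fold change of -0.09 ± 0.10 that did not pass (edgeR adjusted p = 0.52).

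Among large-subunit members, Rpl18 (-0.69 ± 0.10), Rpl36al (-0.62 ± 0.12), Rpl4 (-0.60 ± 0.10) and Rpl8 (-0.50 ± 0.10) were among those that fell the most, and Rpl19, Rpl7, Rpl34 and Rpl32 fell with log2 fold changes from -0.41 to -0.34. Rpl4, which lines the exit tunnel, went from 2884, 3104, 2638 and 2379 CPM to 1536, 1524, 1740 and 1795 CPM, without overlap. Rpl18 went from 741, 657, 701 and 565 CPM to 347, 278, 467 and 424 CPM, again without overlap.

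Among small-subunit members, Rps9 fell by 0.56 on the log2 scale, from 5572, 6626, 5638 and 5136 CPM to 3021, 3449, 3882 and 3792 CPM. Rps14 went from 6251, 5855, 5966 and 5780 CPM to 3808, 3396, 4403 and 4278 CPM (log2 fold change -0.45 ± 0.10). Rps18 (-0.48), Rps3a1 (-0.36) and Rps3 (-0.35) also fell. The calls of Rpl19, Rpl7, Rpl34, Rpl32, Rps3a1 and Rps3 were each lost without HFD 1, without HFD 3 and without a filter on low counts, and in 4 to 8 of 17 alternatives in all. All but Rpl7 were lost without chow 11, and Rpl7, Rpl34 and Rps3a1 without chow 9. Rps18 did not pass without HFD 1, nor did Rps14 without HFD 1 or HFD 3. Of the most counted members, Rps4x (-0.21 ± 0.10, edgeR adjusted p = 0.099) and Rps19 (-0.19 ± 0.10, edgeR adjusted p = 0.12) did not pass.

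The count of members called depended on scaling. Without TMM, 30 of 67 members were lower and none was higher, with 18.6% of all genes lower and 10.4% higher, and the median over all genes moved from 0.03 to -0.12. Relative to the median of all genes, the median member stood at -0.22 on the log2 scale both with and without TMM. Leaving out 1 mouse at a time gave 8 to 14 calls, with 7 lower and 1 higher without HFD 1 (8.57% of all genes lower and 9.19% higher) and 10 lower and none higher without HFD 3 (8.89% and 9.84%).

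**Figure D3:**
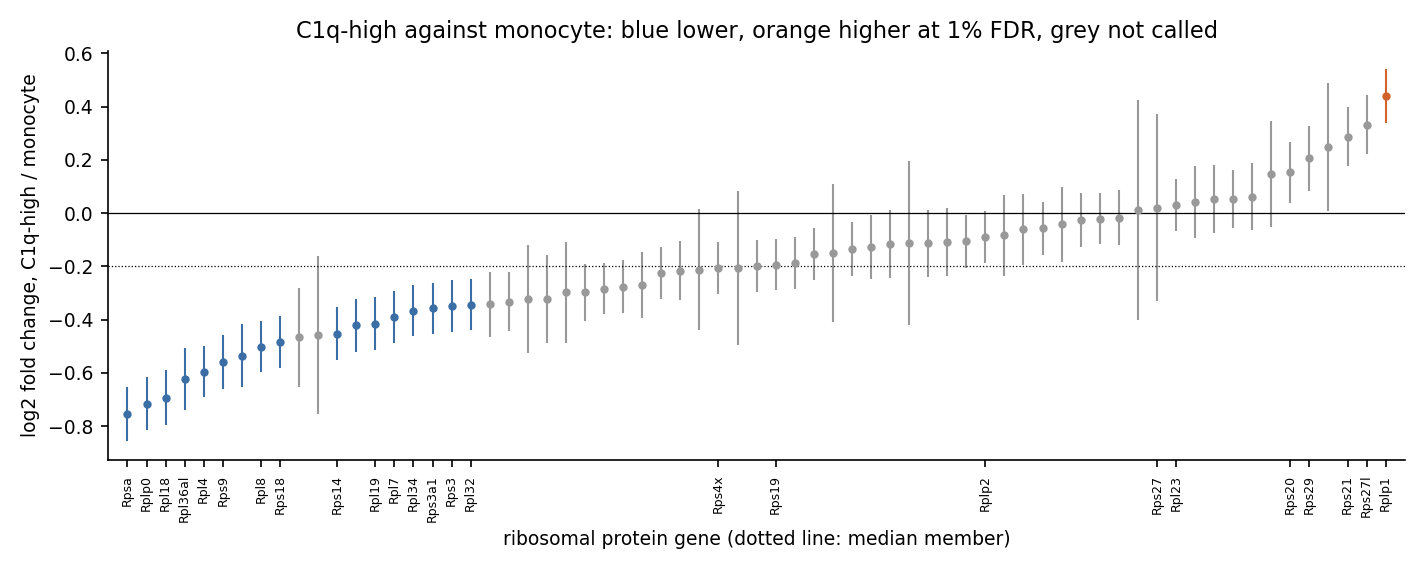
Log2 fold change (C1q-high over monocyte stage, ± SE) of the 67 tested members in order of size, of which those described in the text are named, with called members in blue (lower) and orange (higher) and the median member as a dotted line. Values run from -0.76 for Rpsa to 0.44 for Rplp1, and 53 of 67 lie below 0.

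To find members that deviated from the family itself, the same sums were refitted with all ribosomal protein UMIs as the library size. In C1q-high against monocyte-stage cells, 6 members rose and 3 fell as a part of the family. With this library size 22.6% of all genes were called higher and 6.87% lower, so the share of members called was below that of all genes in both directions.

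Rplp1 rose from 14.1, 19.3, 19.1 and 18.1 UMIs per 1000 ribosomal protein UMIs in chow 9, chow 11, HFD 1 and HFD 3 to 28.1, 34.4, 26.5 and 29.8, with no overlap (log2 fold change 0.75 ± 0.10, edgeR adjusted p = 1.1e-06). Rps21, on the small subunit, rose from 4.49, 4.56, 5.92 and 6.07 to 8.01, 8.14, 7.68 and 7.69 per 1000 (0.60 ± 0.11, edgeR adjusted p = 1.3e-04). Rps27l, a paralog of Rps27 known as a p53-responsive gene, rose from 4.55, 4.26, 5.20 and 6.78 to 6.12, 6.16, 9.39 and 11.5 per 1000 (0.64 ± 0.11, edgeR adjusted p = 4.5e-05). All 3 were higher in C1q-high cells of each mouse.

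Rps29 (0.51 ± 0.13), Rps20 (0.46 ± 0.12) and Rpl23 (0.34 ± 0.10) also rose within the family, and each of the 3 calls was lost without chow 11, without HFD 1 and with the 5 most counted members taken out of the total. None of these 3 was called on the scale of all UMIs, where Rps20 stood at 349, 287, 407 and 368 CPM in monocyte-stage cells and 312, 300, 406 and 409 CPM in C1q-high cells. Rpsa (-0.44 ± 0.10), Rplp0 (-0.40 ± 0.10) and Rpl18 (-0.38 ± 0.11) fell even against the family. Rplp0 went from 60.9, 60.8, 62.3 and 56.3 to 42.9, 42.8, 47.1 and 48.8 per 1000, and Rpsa from 12.7, 15.4, 14.9 and 12.3 to 8.65, 11.1, 10.3 and 10.4 per 1000. With the 5 most counted members taken out of the total, 3 rose and 5 fell, with 18.6% of all genes higher and 7.96% lower. Leaving out single mice gave 3 to 6 calls, with 3 without HFD 1, 3 without chow 11 and 5 without chow 9, and with 18.3% to 22.3% of all genes called. Rplp1, Rps21 and Rps27l passed in each of these fits, and none of the falls passed without HFD 1, chow 11 or chow 9.

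In intermediate against monocyte-stage cells, only Rps27l deviated, at 7.05, 6.41, 7.65 and 9.33 per 1000 (0.56 ± 0.14, edgeR adjusted p = 0.0081), with 3.58% of all genes called higher. That call was lost when any 1 mouse was left out, and with the 5 most counted members taken out of the total (0.49, edgeR adjusted p = 0.019).

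**Figure D4:**
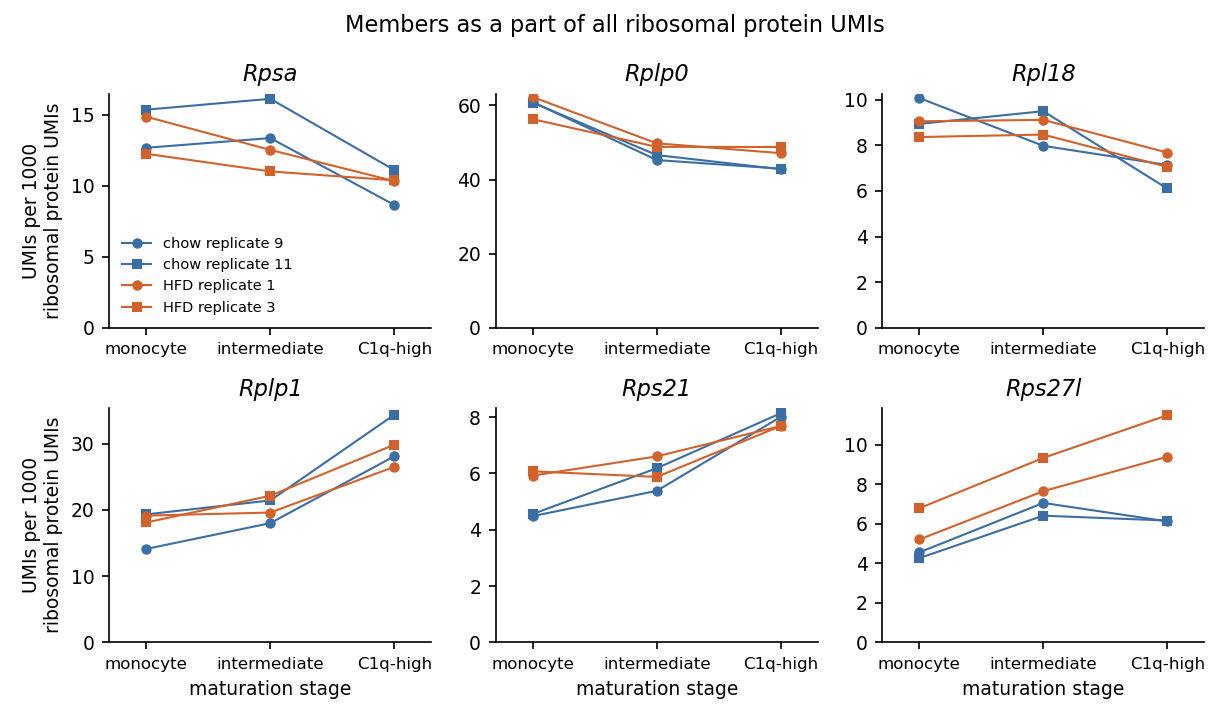
UMIs of 6 members per 1000 ribosomal protein UMIs in each tested stage, 1 line per mouse (blue chow, orange HFD), with axes from 0. Rpsa, Rplp0 and Rpl18 are lower and Rplp1, Rps21 and Rps27l higher in C1q-high than in monocyte-stage cells of every mouse, and Rps27l is also higher in both HFD mice than in both chow mice in all 3 stages.

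The second comparison asked whether HFD changed the family at a given stage. In the C1q-high stage the share was 4.71% ± 0.228 in chow and 6.05% ± 0.0479 in HFD (SD, n = 2 mice each), a difference of 1.34 points without overlap. The exact two-sided permutation test gave p = 0.333, the smallest value that 2 against 2 mice allow. In the monocyte stage the means were 7.35% ± 0.00710 and 7.25% ± 0.697, and in the intermediate stage 6.74% ± 0.670 and 7.14% ± 0.541, and both pairs of groups overlapped (exact p = 1 and 0.667). Over all cells the shares were 5.14% and 4.67% in chow against 6.87% and 6.22% in HFD, a difference of 1.64 points. With equal weight for each of the 3 stages, which removes the greater number of early-stage cells in HFD, the difference was 0.543 points (exact p = 0.333), and it no longer separated the groups without the cells rich in plasma or epithelial markers (0.478 points, exact p = 0.667). The groups also overlapped with the median over cells (0.359 points), Ly6c2 from 2 UMIs (0.527), thresholds 1.5 times lower (0.561) and gates on thinned cells (0.582). With a mouse left out the difference ran from 0.24 without HFD 1 and 0.329 without chow 11 to 0.756 without chow 9 and 0.846 without HFD 3.

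All cells of each mouse, including those in no stage, were then divided by their level of C1q, with ranges chosen after the values were seen and at least 53 cells per mouse from 1% upwards. Cells with C1q at 0.3 to 1% of UMIs held 6.41% and 6.10% ribosomal protein UMIs in chow 9 and chow 11 against 6.49% and 6.15% in HFD 1 and HFD 3, overlapping groups. At 1 to 1.5% C1q the shares were 5.40% and 5.13% in chow against 6.42% and 6.20% in HFD. At 1.5 to 2% they were 4.84% and 4.62% against 6.24% and 6.46%, and at 2 to 2.5% 4.56% and 4.32% against 5.76% and 5.36%. Above 2.5% they were 4.29% and 4.01% against 5.02% and 4.41%. With cells of no stage and cells rich in plasma or epithelial markers left out, the shares above 2.5% were 4.30% and 4.02% against 4.94% and 4.32%. The HFD values thus exceeded both chow values in each of the 4 ranges from 1% upwards, with and without these cells, and in every mouse the share was lowest in the highest range. In C1q-high cells with C1q at 1 to 2.5%, the difference was 1.47 points. The markers of monocytes and resident macrophages given above also differed between the diets in this stage, and their part in the difference was not tested.

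**Figure D5:**
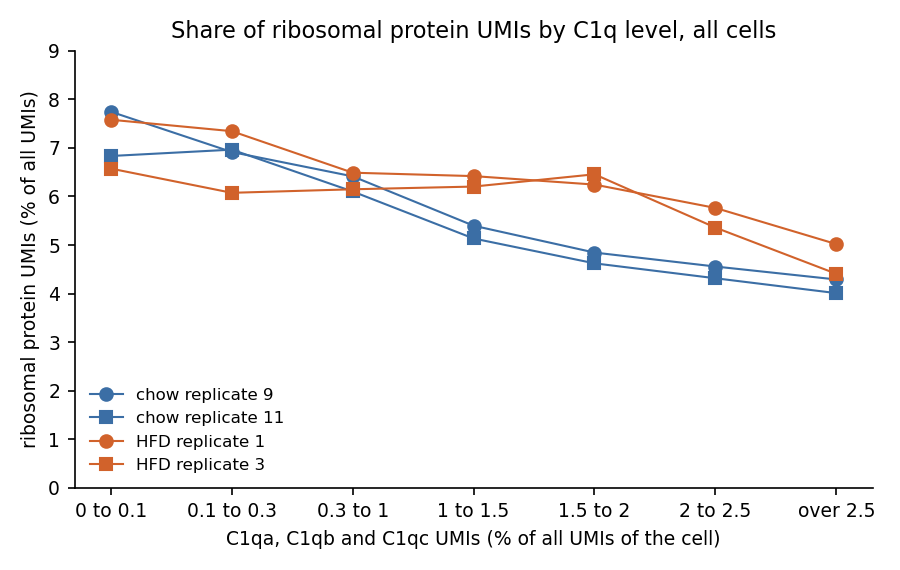
Share of UMIs taken by the 81 ribosomal protein genes in cells divided by C1q level (percent of the cell's UMIs), 1 line per mouse (blue chow, orange HFD), all cells. The groups overlap below 1% C1q, and from 1% upwards each HFD value is above the 2 chow values.

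Gene by gene, 68 members were tested for diet in C1q-high cells, and 2 were higher and none lower in HFD at a 1% false discovery rate, with 7.81% of all 5005 genes called in either direction. The log2 fold change was above 0 for 63 of the 68 members, against 48.5% of all genes, and the median member stood at 0.27 against -0.02. In 57 of the 68, the lower HFD value was above the higher chow value in CPM, which held for 38.9% of all genes. At an unadjusted p under 0.05 edgeR counted 21 of the 68 members, all higher in HFD, against 32.3% of all genes. Without chow 9, 13 members were called, with 11.8% of all genes called. Without HFD 1 or without HFD 3 none was, with 75 and 16 calls left over all genes. At an unadjusted p under 0.05 there were then 10 and 14 of the 68 members, below the 27.1% and 22.2% of all genes.

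Rps27l stood at 298 and 280 CPM in chow 9 and chow 11 and at 571 and 691 CPM in HFD 1 and HFD 3, a log2 fold change of 1.00 ± 0.14 (SE, n = 2 against 2, edgeR adjusted p = 0.0026). The value was 1.13 without HFD 1 (edgeR adjusted p = 0.017) and 0.88 without HFD 3 (edgeR adjusted p = 0.053). It was also the one member called that rose against the family (0.77 ± 0.16, edgeR adjusted p = 0.0031; 12.9% of all genes called in either direction), from 6.12 and 6.16 to 9.39 and 11.5 per 1000. Without HFD 3 no member was called against the family (Rps27l 0.61, edgeR adjusted p = 0.053), and without chow 9, 5 were higher and 1 lower, with 3.64% of all genes higher and 15.3% lower. In monocyte-stage cells it stood at 335 and 313 CPM in chow and 403 and 458 CPM in HFD, and in intermediate cells at 509 and 401 CPM against 575 and 630 CPM, without overlap but also without a call. Rps27, its close paralog, had 29 to 134 UMIs per mouse in C1q-high cells and no unique 31-base word among those searched. The diet value of Rps27 in C1q-high cells was 0.10 ± 0.25 (edgeR adjusted p = 0.82).

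Rpl36al, a paralog of the large-subunit gene Rpl36a, stood at 174 and 156 CPM in chow and 284 and 323 CPM in HFD, a log2 fold change of 0.76 ± 0.15 (edgeR adjusted p = 0.0092). It did not pass without chow 11 (0.67, edgeR adjusted p = 0.018), HFD 1 (0.84, edgeR adjusted p = 0.044) or HFD 3 (0.68, edgeR adjusted p = 0.10), nor without doublets (0.74, edgeR adjusted p = 0.010) or in cells with C1q at 1 to 2.5% of UMIs (0.75, edgeR adjusted p = 0.013), where Rps27l was the one member called. Rpl36a itself had 4 to 12 UMIs per mouse in this stage, too few to test. Only 27.8% of the words searched in Rpl36al were unique to it, against 69.3% in Rps27l. The next largest values, Rpl35 (0.70 ± 0.38), Rpl38 (0.67 ± 0.20) and Rpl9 (0.62 ± 0.25), did not pass, nor did Rplp0 (0.40 ± 0.12, edgeR adjusted p = 0.045), Rpsa (0.31 ± 0.14, edgeR adjusted p = 0.16) and Rplp1 (0.09 ± 0.13, edgeR adjusted p = 0.66). The lowest values were those of Rpl12 (-0.45 ± 0.27), Rps4x (-0.08 ± 0.13) and Rpl7 (-0.08 ± 0.13), which did not pass.

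In monocyte-stage cells 70 members were tested for diet and none was called by edgeR, with 0.972% of all genes called higher and 0.53% lower. At an unadjusted p under 0.05 edgeR counted 2 of the 70 members, both lower in HFD, against 13.7% of all genes, and DESeq2 also called none. The median member stood at -0.04 against -0.02 over all genes, and at 0.07 against 0.09 without TMM, which is -0.02 relative to all genes under both scalings. In intermediate cells 67 members were tested and none was called by edgeR or DESeq2, with 1.20% of all genes called, 3 of the 67 members at an unadjusted p under 0.05 against 14.4% of all genes, and a median of 0.07 against 0.06 over all genes. Without chow 9, 2 of 70 members were called in monocyte-stage cells, with 2.05% of all genes called.

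The difference of the diet effect between C1q-high and monocyte-stage cells was tested as an interaction. None of the 67 members was called by edgeR or DESeq2, with 1.01% of all genes called. At an unadjusted p under 0.05 there were 11 of the 67 members, each with the larger diet effect in C1q-high cells, against 12.7% of all genes. The median member stood at 0.28 against -0.03 over all genes. Rpl9 (1.23 ± 0.37, edgeR adjusted p = 0.089), Rps27l (0.61 ± 0.22, edgeR adjusted p = 0.18) and Rplp0 (0.49 ± 0.20, edgeR adjusted p = 0.25) were among the larger values, and the C1q-high diet effect is thus not shown to differ from that of the monocyte stage for any single member.

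Genes that work with the ribosome were taken from lists of known function. Of the ribosomal proteins with other names, Fau, which encodes eS30, fell in C1q-high cells (-0.44 ± 0.11, edgeR adjusted p = 0.0020). Rack1, a scaffold of the small subunit, stood at 980, 1340, 1088 and 995 CPM in monocyte-stage cells and 690, 823, 854 and 853 CPM in C1q-high cells and missed the threshold (edgeR adjusted p = 0.012). In C1q-high against monocyte-stage cells, 12.9% of all genes were lower and 12.8% higher, against which the counts of these lists are to be read. Of 16 tested elongation factors and other messages with a pyrimidine tract, 6 fell and none rose in C1q-high cells (median -0.13). The lowest were Eif3e (-0.78), Eif3f (-0.71) and Eif3h (-0.70), subunits of the initiation factor that binds the small subunit, with the poly(A)-binding protein Pabpc1 (-0.54) among the others.

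Of 32 tested initiation factors, 5 fell and 4 rose in C1q-high cells (median -0.21), including Eif3k (-0.66), Eif3m (-0.62) and the cap-binding inhibitor Eif4ebp1 (-0.50) among those that fell and Eif2b2 (0.77) among those that rose. Of 38 ribosome biogenesis factors, 3 rose and 2 fell (median 0.15). Myc (2.02), a regulator of ribosome production, and the nucleolar protein Ncl (0.64) rose, and Ltv1 (-0.80), which matures the small subunit, fell. For both of these lists the share called was near or below that of all genes. In the mTOR and S6 kinase list, 2 of 18 rose, Rragc (1.63) and Lamtor3 (0.58), and 2 fell, Lamtor4 (-0.69) and again Eif4ebp1.

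With HFD in C1q-high cells, where 7.81% of all genes were called in either direction, 1 of 32 initiation factors (Eif4e2, 0.87) and 1 of 38 biogenesis factors (Nhp2, 0.76) rose, none of 16 elongation factors and other tract messages was called, and 1 of 17 mTOR pathway genes fell (Sesn1, -1.63). The mitochondrial ribosomal proteins, which serve a separate ribosome, took 3799 and 3663 CPM in chow and 5460 and 5999 CPM in HFD in C1q-high cells, and 3 of 63 tested rose (Mrps18c, Mrpl20 and Mrpl52, median 0.38). In each of these lists the share called was below that of all genes. Against monocyte-stage cells, 5 of 62 mitochondrial ribosomal proteins rose and 4 fell in C1q-high cells (median -0.02). Cycling markers stood at 86.1 to 246 CPM in the monocyte stage and 208 to 319 CPM in the C1q-high stage.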

How the data were processed

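Single-cell libraries from the colon of 4 mice entered the analysis. Reads had been assigned to genes by the authors with kallisto 0.46.0 and bustools 0.39.2 (mm10, Ensembl release 97), followed by filters on cells and genes and removal of cells not annotated as monocytes or macrophages. The deposited values are raw UMI counts per gene and cell. Gene types came from GENCODE M21 (11819 of 11820 identifiers matched).

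MHC II and C1q thresholds were set by Otsu's method (scikit-image 0.26.0). UMI counts were summed per mouse and stage and tested with edgeR 4.0.16 (TMM, quasi-likelihood in its earlier form, false discovery rate 1%), keeping genes above 1 CPM in at least 2 sums and with a UMI in at least 5% of cells. A stage was tested where every mouse had at least 20 cells. Stage fits had a term per mouse. Shares were compared by exact permutation tests over mice, two-sided. The fits were also run on simulated data, from which no value is reported here. DESeq2 1.42.0 and other settings served as alternatives. Scrublet (scanpy 1.11.5) marked 41 cells (0.756%) as doublets, which were kept. The rule for named members took called members (up to 10 per direction), the 5 highest and 5 lowest values, the 10 most counted, the stalk proteins, Rpsa, Rps6, Rack1, Fau and paralogs with the member they resemble, of which a selection is given, and some are not reported here. Other lists have up to 4 called genes named, by size. The members and lists were chosen with earlier results of these data known.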

Additional observations from a re-analysis of the deposited data

Results flagged for a closer look

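The 89 pseudogene rows with ribosomal protein names, which the comparisons did not count, held 8121 UMIs. They took 0.0294% to 0.0616% of UMIs in each tested stage of each mouse. Added to the members, they left the difference in share between C1q-high and monocyte-stage cells at -1.94 points and that between HFD and chow in C1q-high cells at 1.35 points.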

How the results depend on the processing

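The share was lower in C1q-high than in monocyte-stage cells under each of 16 alternatives (-2.32 to -1.31 points), and higher in HFD than in chow C1q-high cells under each of 16 (1.18 to 1.503 points). Over all cells the diet difference ran from 1.32 to 1.97 points, and with equal weight of stages from 0.24 to 0.846. The other 3 differences changed sign under some settings. The intermediate stage differed from the monocyte stage by 0.147 points without the gate genes. The diet difference in monocyte-stage cells turned to 0.0424 points with Ly6c2 from 2 UMIs, 0.0519 with thresholds 1.5 times higher and 0.103 with gates on cells thinned to 1500 UMIs, and ran from -0.599 to 0.386 when single mice were left out. That in intermediate cells ran from -0.0797 to 0.868.

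Members called in C1q-high against monocyte-stage cells numbered 30 without TMM and 8 to 14 with a mouse left out. In intermediate cells they numbered 2 with Ly6c2 from 2 UMIs (1 higher and 1 lower, with 7.11% of all genes called) and 2 without a filter on low counts (both lower, 3.81%). None was called with thresholds 1.5 times higher (7.52%). With a mouse left out there were 0 to 2, and the 2 without chow 9 were both lower (4.10% of all genes called). For diet in C1q-high cells, 1 was called higher in HFD in cells with C1q at 1 to 2.5% (6.25% of all genes called), 1 without doublets (7.996%) and 0 to 13 with a mouse left out, and in monocyte-stage cells 0 to 2. Against the family, stage calls with a mouse left out numbered 3 to 6 in C1q-high cells, with 18.3% to 22.3% of all genes called. In intermediate cells they numbered 0, with 1.56% to 5.45% of all genes called. The newer quasi-likelihood of edgeR also gave 0 there, with 4.97% of all genes called. For diet against the family, the Rps27l value in C1q-high cells ran from 0.61 to 0.90 over 8 alternatives. With a mouse left out, the lone mouse of its diet is assumed to vary like the others. Of 444 values of 32 single-gene calls, 356 kept the call, 88 lost it and 0 reversed, and the cause was not tested.

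The range of C1q from 1 to 2.5%, the removal of cells rich in other markers, the newer quasi-likelihood and the added pseudogenes were chosen after seeing the data. Chow and HFD mice were different animals and the labels give no pairing between them, so the diets were compared without pairs. Chow mice had few monocyte-stage (66 and 71) and intermediate cells (26 and 30), which limits what those stages can show.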
